A study of Mus musculus with 16 samples.

Results

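The 38 Hox genes described here lie in the 4 Hox clusters of the mouse genome, HoxA with 10 genes, HoxB with 10, HoxC with 9 and HoxD with 9, out of 21883 protein-coding genes of the sex chromosomes and autosomes. They were taken by name, with earlier results of these data known. Chromatin came from the mouse embryonic stem cell line CJ9, directed for 5 days to mesoderm or to endoderm. The groups were arid4b-delta mesoderm, WT mesoderm, arid4b-delta endoderm and WT endoderm, where arid4b-delta marks cells with a deletion at Arid4b and WT marks wild-type cells of the same line. ChIP-seq for H3K27me3, H3K4me3 and H3K27ac gave 12 peak lists, with 1 library for each mark, lineage and genotype. The labels do not give the extent of the deletion, the cells that share a culture or the number of clones, and 1 cell line with 1 library per group is a narrow model of a genotype.

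Hox genes encode homeodomain transcription factors that give cells their position along the head-to-tail axis. In each cluster the genes stand in the order of the body levels they specify, and in embryos the genes at the anterior end, with low paralogue numbers, are switched on before those at the posterior end. In embryonic stem cells the clusters are a textbook target of the Polycomb complexes, which deposit H3K27me3 over silent genes. H3K4me3 marks active and poised promoters, and H3K27ac marks active promoters and enhancers. The Arid4b protein belongs to the Sin3 corepressor, whose histone deacetylases remove acetyl groups from histones. Here anterior means paralogues 1 to 3 (7 genes), central means paralogues 4 to 8 (15 genes) and posterior means paralogues 9 to 13 (16 genes).

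On build mm10, the listed genes span chr6:52162417-52260880 in HoxA, chr11:96194316-96368254 in HoxB, chr15:102921131-103036856 in HoxC and chr2:74668225-74765142 in HoxD. The anterior end is at the low coordinates in HoxA and at the high coordinates in the other clusters. Promoter sequences from RefSeq (GRCm38.p6, 250 bases before to 50 after the annotated start) were at hand for 22 of the 38 genes. No list had H3K27ac in any of these 22 promoters, and Hoxb8 had none within 1 kb of its annotated start. The 3 printed here are Hoxb1, on which H3K27me3 differed most between the mesoderm lists, Hoxb8, a gene with H3K27ac near an end, and Hoxa13, a posterior gene under H3K27me3 in every list. They read chr11:96365508-96365807 (plus strand), chr11:96281655-96281954 (plus strand) and chr6:52260831-52261130 (minus strand), 5′ to 3′, and capitals mark the motifs TTTATG, found in sites of caudal factors, and TGATNNAT, found in joint sites of Pbx and Hox proteins.
Hoxb1: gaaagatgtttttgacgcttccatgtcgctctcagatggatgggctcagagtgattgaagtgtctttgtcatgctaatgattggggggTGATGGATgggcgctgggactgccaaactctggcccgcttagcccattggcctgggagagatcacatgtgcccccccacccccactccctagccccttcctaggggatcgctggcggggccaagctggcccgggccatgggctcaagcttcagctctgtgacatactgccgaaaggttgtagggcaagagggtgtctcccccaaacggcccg
Hoxb8: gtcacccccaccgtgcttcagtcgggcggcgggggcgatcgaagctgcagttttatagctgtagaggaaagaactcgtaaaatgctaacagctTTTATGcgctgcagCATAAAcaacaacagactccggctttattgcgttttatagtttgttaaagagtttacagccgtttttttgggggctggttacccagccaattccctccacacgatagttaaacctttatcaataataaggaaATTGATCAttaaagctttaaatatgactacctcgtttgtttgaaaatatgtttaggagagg
Hoxa13: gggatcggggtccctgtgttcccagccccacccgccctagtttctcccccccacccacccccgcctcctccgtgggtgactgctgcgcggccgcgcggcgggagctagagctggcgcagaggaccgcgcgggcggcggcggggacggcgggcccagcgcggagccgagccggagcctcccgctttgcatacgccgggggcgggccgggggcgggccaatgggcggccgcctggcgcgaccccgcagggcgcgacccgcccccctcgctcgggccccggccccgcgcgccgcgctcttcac
Both motifs were searched on both strands, and in the printed promoters no TTTATG match overlapped a TGATNNAT match. TTTATG was in 5 of the 22 Hox promoters (22.7%), against 10.1% of 17491 promoters of the same length, and TGATNNAT was in 3 (13.6%), against 7.83%. The Hox promoters held a median of 13.5 CpG sites, against 13 over all promoters, with the highest count of 45 in Hoxa13. A match is a run of letters and not a measured site.

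The clusters also hold microRNA genes, and their mature sequences fall into 2 seed groups (bases 2 to 8, in capitals). They are shown because H3K27me3 cover differed among these genes in WT mesoderm. Mir10a lies in HoxB and Mir10b in HoxD, both next to paralogue 4, while Mir196b (HoxA), Mir196a-1 (HoxB) and Mir196a-2 (HoxC) lie near paralogues 9 and 10.
mmu-miR-10a-5p: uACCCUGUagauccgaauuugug
mmu-miR-10b-5p: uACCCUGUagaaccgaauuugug
mmu-miR-196a-5p: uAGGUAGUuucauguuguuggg
mmu-miR-196b-5p: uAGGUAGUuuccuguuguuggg
The miR-10 pair shares the seed ACCCUGU and the miR-196 pair the seed AGGUAGU, both read from RefSeq (GRCm38.p6).

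The lists themselves set limits on what follows. The H3K27me3 lists held 9863 peaks over 16.9 Mb in arid4b-delta mesoderm, 6150 peaks over 6.91 Mb in WT mesoderm, 16660 peaks over 21.4 Mb in arid4b-delta endoderm and 10326 peaks over 14.1 Mb in WT endoderm. The H3K4me3 lists covered 23.7 Mb, 16.3 Mb, 21 Mb and 12.7 Mb in the same order of groups, so both marks covered more of the genome in arid4b-delta of both lineages. The lowest −log10 q of the H3K27me3 lists was 0.358, 0.307, 0.317 and 0.312 in that order, against about 2 or more for the other marks. The H3K27me3 lists thus include weaker calls. Sequencing depth is unknown, and its part in any difference was not tested. No group has replicates, so no p-values are given, and intervals on shares are exact Clopper-Pearson 95% intervals that cover counting error only. A mark in fewer cells and less of it in each cell cannot be told apart. As for the lineage labels, H3K27ac lay at none of the 5 endoderm markers (Sox17, Foxa2, Gata4, Gata6, Cxcr4) in any list. It lay at 0 of 5 mesoderm markers in arid4b-delta mesoderm and at 3 in WT mesoderm (T, Pdgfra, Tbx6), and at none in endoderm of either genotype. Of 4 pluripotency markers, 3 carried it in arid4b-delta mesoderm, 2 in WT mesoderm, 2 in arid4b-delta endoderm and 3 in WT endoderm. The part of the cell mixture in the Hox values was not tested.

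A Hox gene counted as marked when a peak overlapped the 1 kb on either side of either gene end. By that count H3K27me3 lay at all 38 Hox genes in all 4 lists, against 16.3% of all genes in arid4b-delta mesoderm, 9.34% in WT mesoderm, 17.2% in arid4b-delta endoderm and 14.4% in WT endoderm. No Hox gene was marked in one genotype alone, while over all genes 7.69% had H3K27me3 in arid4b-delta mesoderm only and 0.727% in WT mesoderm only, and 4.89% in arid4b-delta endoderm only and 2.05% in WT endoderm only. Nor was any Hox gene marked in one lineage alone, where in arid4b-delta 2.37% of all genes had H3K27me3 in mesoderm only and 3.31% in endoderm only, and in WT 1.01% had it in mesoderm only and 6.07% in endoderm only. The difference lay in how much of each gene and cluster the mark covered. The count of 0 rests on the deposited limits: with only peaks of −log10 q of at least 2, 22 Hox genes were marked in arid4b-delta mesoderm only, and with the arid4b-delta list limited in covered bases by −log10 q, 10 were marked in WT mesoderm only. Here and below, shares of all genes were not computed under such alternative limits. These counts thus show how far the Hox counts move, and not a difference between Hox genes and other genes.

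In mesoderm, H3K27me3 covered 433 kb of the 485 kb of Hox clusters in arid4b-delta cells and 289 kb in WT cells. HoxA was covered over 98.5 kb in arid4b-delta and 64.5 kb in WT, and HoxB over 130 kb in arid4b-delta and 76.3 kb in WT. HoxC was covered over 112 kb in arid4b-delta and 90.1 kb in WT, and HoxD over 92.8 kb in arid4b-delta and 57.9 kb in WT. Each cluster thus had more covered length in arid4b-delta, by 1.53-fold in HoxA, 1.7-fold in HoxB, 1.24-fold in HoxC and 1.6-fold in HoxD. The ratio over the 4 clusters was 1.5, below the 2.45-fold ratio of the whole lists. WT cells already had 289 kb of the 485 kb covered, so the length of the clusters capped this ratio. The whole lists had no such cap, so the cluster and whole-list ratios are not like measures. Set as shares of each list, the Hox clusters took 2.56% of the covered bases in arid4b-delta and 4.18% in WT, a ratio of 0.612. The direction turns when each list is scaled to its own total, but that turn was set by the cap and the list totals. With only peaks of −log10 q of at least 2 the ratio over the 4 clusters was 4.06, with 1.54 in HoxA, 10 in HoxB, 5.75 in HoxC and 9.06 in HoxD. With the arid4b-delta list limited in covered bases by −log10 q, the ratio of HoxB turned to 0.263.

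The form of the mark differed as well. The clusters were covered by 16 peaks in arid4b-delta mesoderm (27067 bp of cluster per peak) and by 95 peaks in WT mesoderm (3040 bp per peak). In arid4b-delta mesoderm a single peak of 119818 bp, the longest of the list, lay over all 10 HoxA genes, with peaks of 113484 bp over HoxC and 103033 bp over HoxB at ranks 2 and 3. In WT mesoderm the longest Hox peak was 19827 bp, over Hoxd9, Hoxd10 and Hoxd11, and the longest in HoxA was 19415 bp, over Hoxa10 and Hoxa11. The longest peaks of HoxC and HoxB in WT mesoderm were 16523 bp over Hoxc12 and Hoxc13 and 13982 bp over Hoxb8 and Hoxb9, so 8 of the 9 genes under these 4 peaks were posterior. Long arid4b-delta mesoderm peaks elsewhere in the genome were also only partly covered in WT mesoderm. These peaks were chosen for their length in the arid4b-delta list, so lower WT cover is partly set by that choice. WT mesoderm covered a median of 66.5% of the 6 arid4b-delta mesoderm peaks of at least 20 kb that overlap a Hox cluster, and 68.1% of the 50 such peaks elsewhere.

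In endoderm H3K27me3 covered 100% of HoxA in both genotypes, 99.2% of HoxC in arid4b-delta and 98.1% in WT, and 95.9% of HoxD in arid4b-delta and 93.8% in WT. HoxB was covered over 76.2% in arid4b-delta and 73.6% in WT, with a stretch of the gap before Hoxb13 uncovered in both. The 4 clusters were covered over 439 kb by 13 peaks in arid4b-delta endoderm and over 431 kb by 21 peaks in WT endoderm, a ratio of 1.02, while the whole lists differed 1.51-fold. As a share of each list that ratio was 0.673. WT endoderm already covered 88.8% of the cluster length, so both values were capped by that length. The HoxA peak was again the longest of its list, at 121671 bp in arid4b-delta endoderm and 113468 bp in WT endoderm. Set against WT endoderm, WT mesoderm had 0.67 times the covered length over the clusters (0.489 times over the whole lists), and arid4b-delta mesoderm had 0.987 times that of arid4b-delta endoderm (0.793 times over the whole lists). The value of 0.67 depends on the scale and the limit, being 1.37 as a share of each list and 0.259 with −log10 q of at least 2. The share of the cluster length under H3K27me3 was 89.3% in arid4b-delta mesoderm, 59.5% in WT mesoderm, 90.5% in arid4b-delta endoderm and 88.8% in WT endoderm, so WT mesoderm had the least cover of the 4 lists, as the map of peaks shows.

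**Figure D1:**
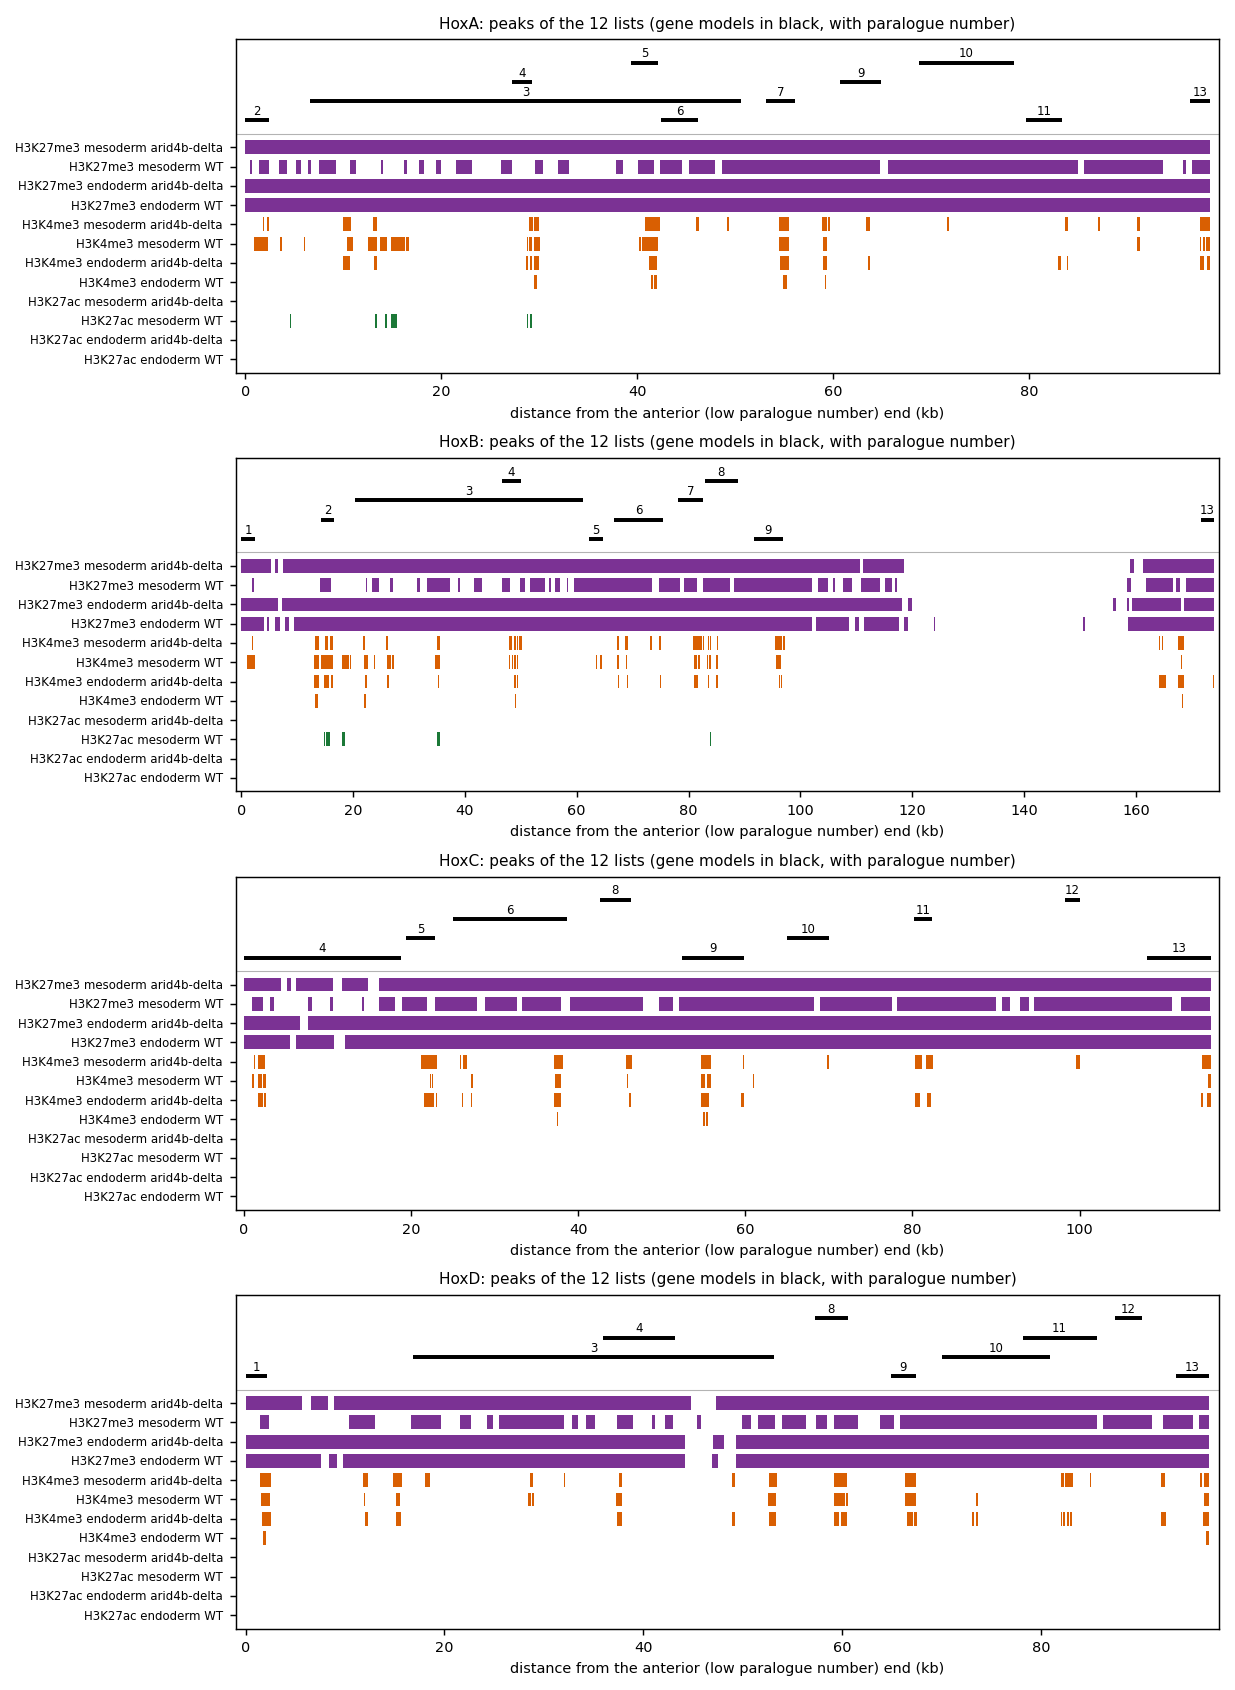
Peaks of the 12 lists over each Hox cluster, with distance in kb from the anterior end on the horizontal axis and 1 line per list (purple H3K27me3, orange H3K4me3, green H3K27ac). Black bars are gene models with their paralogue number, and H3K27me3 is broken into 95 peaks in WT mesoderm, most finely toward the anterior end, against 16 in arid4b-delta mesoderm.

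The covered stretches of WT mesoderm were not spread evenly along the clusters. Each cluster was split at its midpoint into an anterior and a posterior part, with HoxB taken from Hoxb1 to Hoxb9 because Hoxb13 stands apart beyond a long gap. H3K27me3 covered 95.5% of the anterior parts in arid4b-delta mesoderm and 43.4% in WT mesoderm. It covered 100% of the posterior parts in arid4b-delta mesoderm and 85.8% in WT mesoderm. The anterior parts were thus the less covered ones in WT, and this held in each cluster taken alone: 39.5% anterior and 91.5% posterior in HoxA, 25.6% and 79.6% in HoxB, 64.7% and 91% in HoxC, and 39.7% and 79.9% in HoxD. In endoderm the anterior parts were covered over 97.6% in arid4b-delta and 94.7% in WT, and the posterior parts over 99.6% in both. With Hoxb13 and its gap included, the parts were covered over 96.2% (anterior) and 82.4% (posterior) in arid4b-delta mesoderm and over 48.6% and 70.5% in WT mesoderm.

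**Figure D2:**
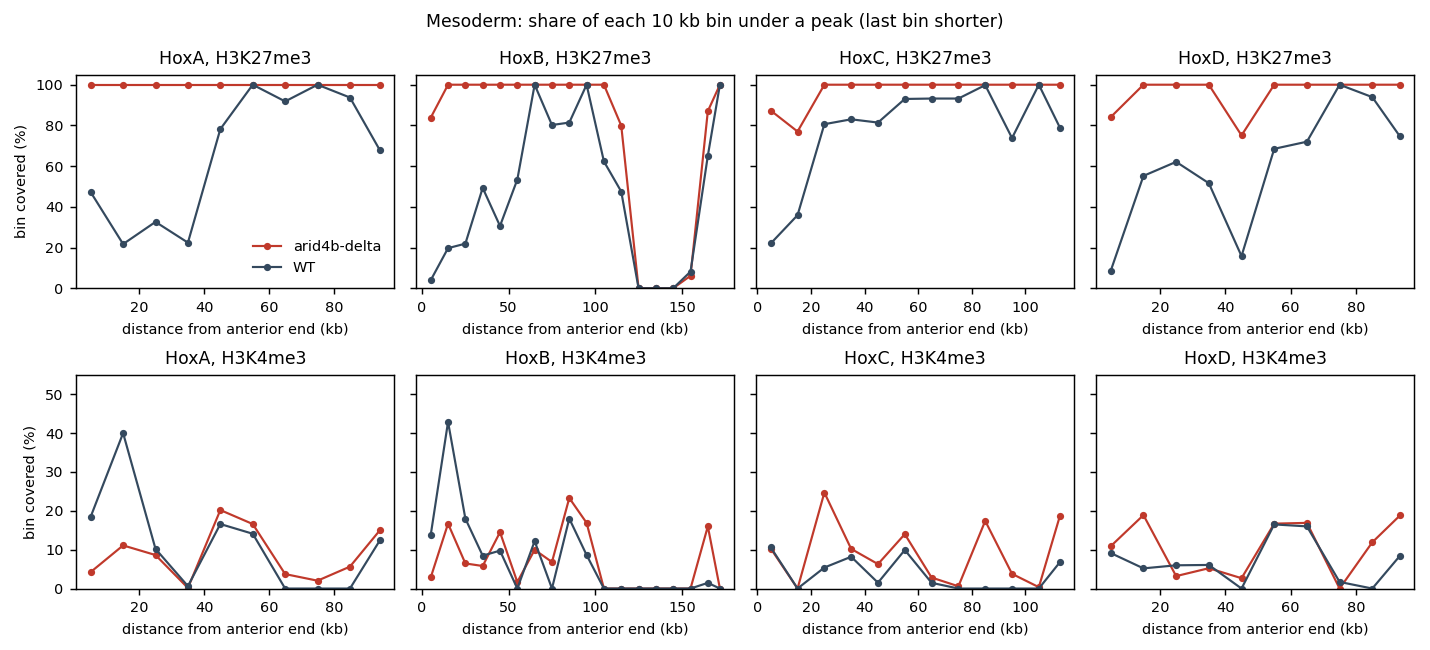
Share of each 10 kb bin under a peak (%), from the anterior end of each cluster, in arid4b-delta mesoderm (red) and WT mesoderm (dark blue), for H3K27me3 above and H3K4me3 below, 1 library per line. In the first 10 kb H3K27me3 covers 100% of HoxA, 83.8% of HoxB, 87.3% of HoxC and 84.1% of HoxD in arid4b-delta, against 47.2%, 3.94%, 22% and 8.61% of the same clusters in WT.

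Gene by gene, the split of WT mesoderm ran between paralogues 4 and 5. Taking each gene with 1 kb on either side, H3K27me3 covered less than 50% of 11 Hox genes in WT mesoderm, and these were the 7 anterior genes and the 4 genes of paralogue 4 (Hoxa4, Hoxb4, Hoxc4, Hoxd4). None of the other 27 genes was under 50%, a limit set after the values were seen. In arid4b-delta mesoderm, and in endoderm of both genotypes, no Hox gene was under 50%. Over all genes 97.8% were under 50% in arid4b-delta mesoderm, 99% in WT mesoderm, 97.7% in arid4b-delta endoderm and 98.2% in WT endoderm. The split rests on the deposited limits: with the upper 50% of peaks by fold enrichment, 1 Hox gene was under 50% in arid4b-delta mesoderm (Hoxc4) and 23 in WT mesoderm (7 anterior, 12 central, 4 posterior). With −log10 q of at least 2 the counts were 0 and 29 (7 anterior, 12 central, 10 posterior), and with the arid4b-delta list limited in covered bases by −log10 q they were 10, of which 9 were HoxB genes, and 11. Wholly covered genes numbered 35 of 38 in arid4b-delta mesoderm, 10 in WT mesoderm, 34 in arid4b-delta endoderm and 33 in WT endoderm, against 0.873%, 0.151%, 0.951% and 0.754% of all genes in the same order of lists. The medians in WT mesoderm were 41.3% for anterior, 75.1% for central and 96.7% for posterior genes, with ranges of 8.74% to 48.8%, 26.7% to 100% and 76.1% to 100%. The gene models of Hoxa3, Hoxb3 and Hoxd3 run over neighbouring Hox genes, so their values share peaks with those genes.

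Among the anterior genes, Hoxb1, a hindbrain gene that patterns the fourth rhombomere, had H3K27me3 over 100% of its stretch in arid4b-delta mesoderm, 8.74% in WT mesoderm, 100% in arid4b-delta endoderm and 80.6% in WT endoderm. Hoxd1 had 83.5% in arid4b-delta mesoderm, 20.7% in WT mesoderm, 97.6% in arid4b-delta endoderm and 78.1% in WT endoderm. Hoxa2, which sets the identity of the second branchial arch, had 100% in arid4b-delta mesoderm, 28.2% in WT mesoderm and 100% in endoderm of both genotypes. WT mesoderm was the low list at each of the 3 genes. Hoxb2 stood at 45%, Hoxa3 at 42%, Hoxb3 at 41.3% and Hoxd3 at 48.8% in WT mesoderm, against 100%, 100%, 100% and 93.5% in the same genes of arid4b-delta mesoderm. At the gene ends, all 7 anterior genes had more covered bases in arid4b-delta mesoderm than in WT mesoderm, as did 12 of 15 central and 7 of 16 posterior genes, and none had fewer. Over all genes 15% had more in arid4b-delta mesoderm and 1.53% more in WT mesoderm. In endoderm 3 Hox genes had more in arid4b-delta and 1 had more in WT (Hoxc4, with 3530 bp in arid4b-delta and 4002 bp in WT, where 4002 bp is the full length of both windows), against 11.9% and 4.94% of all genes.

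Among the central genes, Hoxc4 was covered over 82.8% in arid4b-delta mesoderm and 26.7% in WT mesoderm, and Hoxd4 over 100% and 30.2% in the same lists. Hoxa5, needed for the patterning of the neck and upper thorax and for the lung, had 100% in arid4b-delta mesoderm and 55.9% in WT mesoderm. Hoxa7, Hoxb5 and Hoxc8 had 100% in both. The central genes ran from 26.7% to 100%, with the 4 genes of paralogue 4 the lowest of them. Of the posterior genes, which pattern the lumbar to tail levels, the limbs and the urogenital tract, 7 of 16 had 100% in WT mesoderm. The lowest of them was Hoxa13, a gene of the hand and foot plate, with 100% in arid4b-delta mesoderm and 76.1% in WT mesoderm.

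Among the printed promoters, that of Hoxb1 was chosen for its H3K27me3 difference in mesoderm, so its values give no separate support. The 300 bases of Hoxb1 lay wholly under H3K27me3 in arid4b-delta mesoderm, at 0 bases in WT mesoderm, and wholly under it in endoderm of both genotypes. Those of Hoxb8 and Hoxa13 lay wholly under it in all 4 lists. Of the 22 promoters with a sequence, 22 were wholly covered in arid4b-delta mesoderm, 13 in WT mesoderm and 22 in endoderm of each genotype. Of the 17491 promoters of all genes, 7.32% were wholly covered in arid4b-delta mesoderm, 3% in WT mesoderm, 7.5% in arid4b-delta endoderm and 6.13% in WT endoderm. The 4 promoters with no H3K27me3 in WT mesoderm were those of Hoxb1, Hoxc4, Hoxd4 and Hoxa9, so 1 posterior gene was among them. Hoxb2, Hoxb3, Hoxa4 and every HoxC gene but Hoxc4 have no promoter sequence here, so positions are unevenly sampled. The share of all promoters with no H3K27me3 was not computed.

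For the microRNA genes, H3K27me3 covered 100% of each hairpin with 1 kb on either side in arid4b-delta mesoderm. In WT mesoderm it covered 53.6% at Mir10a and 44% at Mir10b, and it reached neither of the 2 hairpins. Of the miR-196 genes, Mir196b and Mir196a-2 had 100% and Mir196a-1 had 53.9%, with its hairpin uncovered, in WT mesoderm. The seed groups were thus not cleanly parted, because Mir196a-1 stood near the miR-10 genes. In endoderm each microRNA gene had 100% in arid4b-delta, and in WT endoderm Mir196a-1 had 66.8% and the others 100%. No H3K4me3 or H3K27ac peak reached a hairpin in any list.

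H3K4me3 was found at 29 of 38 Hox genes in arid4b-delta mesoderm (76.3%, interval 59.8% to 88.6%) and 25 in WT mesoderm (65.8%, interval 48.6% to 80.4%). In endoderm it was at 24 in arid4b-delta (63.2%, interval 46% to 78.2%) and 8 in WT (21.1%, interval 9.55% to 37.3%). WT endoderm had the fewest. Over all genes the shares were 59.7%, 55.9%, 58.6% and 53.3% in the same order of lists, so the Hox genes of WT endoderm stood below the whole and those of the other lists near or above it.

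**Figure D3:**
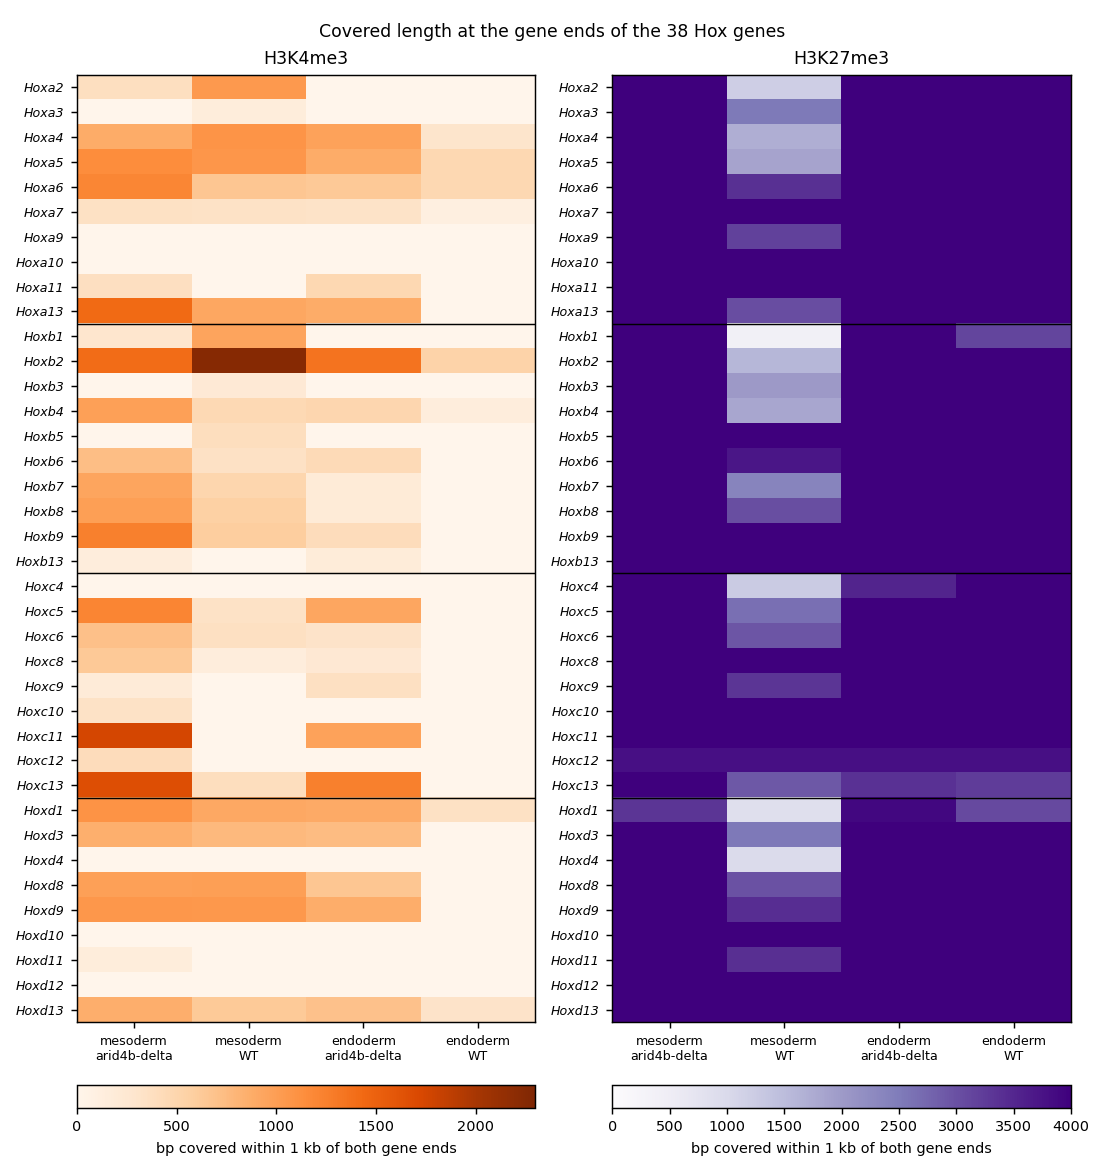
Bases covered within 1 kb of both ends of each of the 38 Hox genes, in order of paralogue within each cluster, for H3K4me3 (left) and H3K27me3 (right). Columns run arid4b-delta mesoderm, WT mesoderm, arid4b-delta endoderm and WT endoderm, and the palest H3K27me3 cells are low paralogues of WT mesoderm, with 394 bp at Hoxb1.

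In endoderm, 16 Hox genes had H3K4me3 in arid4b-delta alone and none had it in WT alone. These shares were 42.1% and 0% of the Hox genes, against 5.37% and 0.101% of all genes. They were 1 anterior, 7 central and 8 posterior genes: Hoxd3, then Hoxb6, Hoxb7, Hoxb8, Hoxc5, Hoxc6, Hoxc8 and Hoxd8, then Hoxa11, Hoxa13, Hoxb9, Hoxb13, Hoxc9, Hoxc11, Hoxc13 and Hoxd9. The largest was Hoxc13, a gene of hair and nail, with 1250 bp in arid4b-delta endoderm and 0 bp in WT endoderm, and Hoxc11 had 964 bp and 0 bp. At the 8 genes marked in both, the covered length was also larger in arid4b-delta: Hoxb2 had 1348 bp in arid4b-delta endoderm and 523 bp in WT endoderm, and Hoxd13, a digit gene, had 695 bp and 322 bp. By length at the gene ends, 24 Hox genes had more in arid4b-delta endoderm, 0 had more in WT endoderm and 14 were equal at 0. Over all genes 57.4% had more in arid4b-delta and 1.12% more in WT. The end windows can miss starts inside gene models. Within 1 kb of its start Hoxc4 had 812 bp in arid4b-delta endoderm and 0 bp in WT endoderm, and Hoxd10 had 448 bp and 0 bp. Hoxb8 had 196 bp at its ends in arid4b-delta endoderm but 0 bp at its start. The count of 16 fell to 6 with each list reduced to its upper 50% by fold enrichment, and of these 6 only Hoxa13 was among the 16. It fell to 0 when the arid4b-delta list was limited, in order of −log10 q, to the bases that the WT list covers, and 8 Hox genes were then marked in WT only, so none of the 24 Hox genes kept a peak in the limited arid4b-delta list.

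Over the whole clusters H3K4me3 of endoderm covered 27.1 kb in 67 peaks in arid4b-delta (405 bp per peak) and 3.62 kb in 15 peaks in WT (241 bp per peak). The ratio was 7.49, where the whole lists differed 1.66-fold, and 4.52 with each list scaled to its own total. By cluster it was 4.21 in HoxA, 7.08 in HoxB, 11.5 in HoxC and 10.9 in HoxD. Without the Hoxb13 side, the anterior parts held 12.1 kb in arid4b-delta and 2.48 kb in WT, and the posterior parts 12.7 kb in arid4b-delta and 0.951 kb in WT.

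In mesoderm the genotypes differed by position. H3K4me3 was in arid4b-delta only at 7 Hox genes (18.4%, against 3.92% of all genes), and these were all posterior: Hoxa11, Hoxb13, Hoxc9, Hoxc10, Hoxc11, Hoxc12 and Hoxd11. It was in WT only at 3 (7.89%, against 0.119% of all genes), the anterior Hoxa3 and Hoxb3 and the central Hoxb5. Posterior genes carried it in 12 of 16 cases in arid4b-delta mesoderm and in 5 of 16 in WT mesoderm, and anterior genes in 5 of 7 and in 7 of 7. With lists matched in length by fold enrichment, 4 genes remained in arid4b-delta only (Hoxa11, Hoxc10, Hoxc11, Hoxc12), all posterior, and 5 were in WT only. Where at least 500 bp of the window had to be covered, 8 genes were found in arid4b-delta only, 6 of them central and 2 posterior, and 2 in WT only (Hoxa2 and Hoxb1). With the list limited in covered bases by −log10 q, 0 were in the arid4b-delta list alone and 23 in the WT list alone.

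The lengths at the gene ends went the same ways. Hoxc11, a posterior gene, had 1743 bp in arid4b-delta mesoderm, 0 bp in WT mesoderm, 964 bp in arid4b-delta endoderm and 0 bp in WT endoderm. Hoxc13 had 1669 bp in arid4b-delta mesoderm, 389 bp in WT mesoderm, 1250 bp in arid4b-delta endoderm and 0 bp in WT endoderm. Both were higher in arid4b-delta of each lineage. At the anterior end, Hoxa2 had 378 bp in arid4b-delta mesoderm and 1039 bp in WT mesoderm, and 0 bp in endoderm of both genotypes. Hoxb1 had 285 bp in arid4b-delta mesoderm and 947 bp in WT mesoderm, and 0 bp in endoderm. Hoxb2 had 1410 bp in arid4b-delta mesoderm, 2238 bp in WT mesoderm, 1348 bp in arid4b-delta endoderm and 523 bp in WT endoderm. Hoxa2, Hoxb1 and Hoxb2 thus had more H3K4me3 in WT mesoderm than in arid4b-delta mesoderm.

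Counted over the groups, 2 of 7 anterior genes had more H3K4me3 at their ends in arid4b-delta mesoderm and 5 had more in WT mesoderm. Of 15 central genes, 10 had more in arid4b-delta, 3 had more in WT and 2 were equal. Of 16 posterior genes, 12 had more in arid4b-delta, 0 had more in WT and 4 were equal. Within 1 kb of its annotated start the posterior gene Hoxd10 had 0 bp in arid4b-delta mesoderm and 170 bp in WT mesoderm. Over whole gene models with 1 kb on either side, the central genes were nearly even, with 8 more in arid4b-delta and 7 more in WT. By that measure the anterior genes were 2 and 5, and the posterior genes 14 and 1. At the gene ends the median difference, arid4b-delta minus WT, was −219 bp for anterior, 347 bp for central and 206 bp for posterior genes. Over all genes it was 78 bp, and 56.2% of them had more in arid4b-delta and 3.18% more in WT. The 5 anterior genes with more in WT at their ends were Hoxa2, Hoxa3, Hoxb1, Hoxb2 and Hoxb3, all in HoxA or HoxB, while Hoxd1 and Hoxd3 had more in arid4b-delta.

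By cluster, H3K4me3 of mesoderm covered 8.5 kb of HoxA in arid4b-delta and 11.1 kb in WT, and 12.1 kb of HoxB in arid4b-delta and 13.3 kb in WT. It covered 10.1 kb of HoxC in arid4b-delta and 4.1 kb in WT, and 9.93 kb of HoxD in arid4b-delta and 6.64 kb in WT. HoxA and HoxB thus had more in WT, and HoxC and HoxD more in arid4b-delta, but with the upper 50% of each list the ratio of HoxA, arid4b-delta over WT, turned to 1.45. Over the 4 clusters the lengths were 40.7 kb in 79 peaks in arid4b-delta (515 bp per peak) and 35.1 kb in 70 peaks in WT (502 bp per peak), a ratio of 1.16 beside 1.45 for the whole lists. That ratio fell to 0.974 with lists matched in length by fold enrichment, to 0.963 with lists matched in length by −log10 q, to 0.798 with each list scaled to its own total and to 0.0379 with lists matched in covered bases. By part, the anterior stretches held 18.1 kb in arid4b-delta and 23.3 kb in WT, and the posterior stretches 20.6 kb in arid4b-delta and 11.7 kb in WT. With Hoxb13 and its gap included, H3K4me3 covered 9.61% of the anterior and 7.15% of the posterior parts in arid4b-delta mesoderm, so the posterior excess within that list rests on where HoxB is split.

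**Figure D4:**
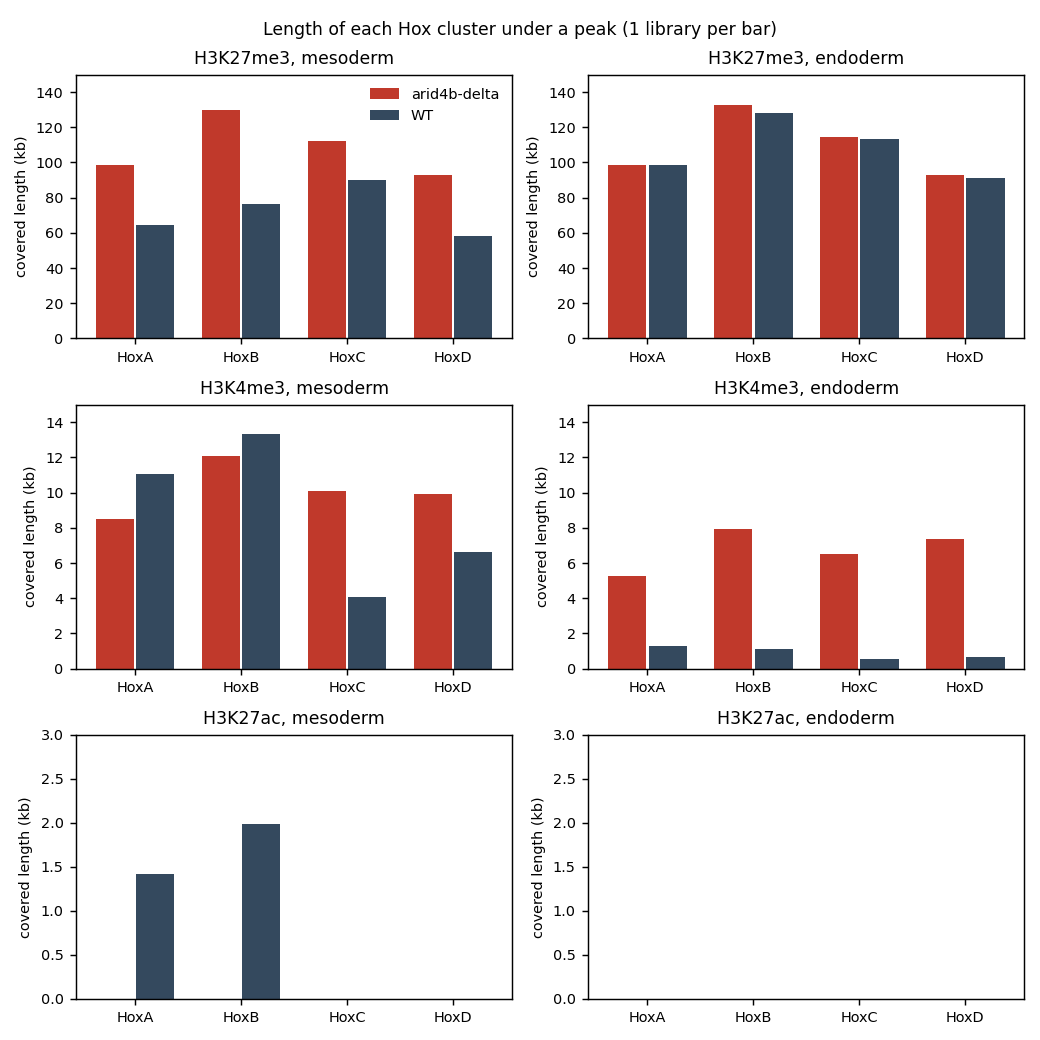
Covered length of each Hox cluster in kb, by mark (down the page) and lineage (mesoderm left, endoderm right), with arid4b-delta in red and WT in dark blue and 1 library per bar. H3K4me3 of HoxA and HoxB is longer in arid4b-delta endoderm than in WT endoderm and shorter in arid4b-delta mesoderm than in WT mesoderm, and H3K27ac stands in WT mesoderm only.

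Between lineages, mesoderm had H3K4me3 over 40.7 kb of the clusters and endoderm over 27.1 kb in arid4b-delta cells, a ratio of 1.5. In WT cells the lengths were 35.1 kb in mesoderm and 3.62 kb in endoderm, a ratio of 9.7, where the whole lists differed 1.13-fold in arid4b-delta and 1.29-fold in WT. Genes marked in mesoderm only numbered 5 in arid4b-delta (13.2%, against 1.48% of all genes), namely Hoxa2, Hoxb1, Hoxc10, Hoxc12 and Hoxd11, and 17 in WT (44.7%, against 3.15% of all genes), 5 of them anterior, 8 central and 4 posterior. No Hox gene was marked in endoderm only in either genotype, where 0.338% of all genes were in arid4b-delta and 0.548% in WT. These counts depend on the lists. With the upper 50% of each list, 3 Hox genes were in endoderm only in arid4b-delta, with a ratio of 3.21, and the count of 17 in WT fell to 8. With lists matched in length, 1 was in endoderm only in arid4b-delta. With lists matched in covered bases, 7 were in endoderm only in arid4b-delta, where the ratio turned to 0.82, and in WT 3 were in mesoderm only and 2 in endoderm only, with a ratio of 2.16.

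H3K4me3 within the clusters lay mostly under H3K27me3, the pair called bivalent. In arid4b-delta mesoderm 100% of the H3K4me3 bases lay under H3K27me3, and in WT mesoderm 65.3% did, with 55.8% in HoxA, 56.2% in HoxB, 79.6% in HoxC and 90.5% in HoxD. In endoderm the shares were 96.8% in arid4b-delta and 100% in WT. H3K27me3 covered 89.3% of the cluster length in arid4b-delta mesoderm, 59.5% in WT mesoderm, 90.5% in arid4b-delta endoderm and 88.8% in WT endoderm. In WT mesoderm it covered 65.5% of HoxA, 43.9% of HoxB, 77.9% of HoxC and 59.8% of HoxD. Over the 4 clusters the overlap was thus not far above the cover, and in HoxA of WT mesoderm it was below it. H3K4me3 outside H3K27me3 was thus found mainly in WT mesoderm, in HoxA and HoxB. These libraries come from many cells, so an overlap of peaks does not place both marks on one chromosome copy. By gene, both marks without H3K27ac lay at 29 Hox genes in arid4b-delta mesoderm, 22 in WT mesoderm, 24 in arid4b-delta endoderm and 8 in WT endoderm, against 12.1%, 6.81%, 12.5% and 8.67% of all genes in the same order of lists. All 38 Hox genes counted as marked by H3K27me3 in every list, so none could have H3K4me3 without it. Over all genes 45.5%, 48.3%, 44.3% and 43.2% had H3K4me3 without H3K27me3 in these lists.

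H3K27ac lay at the ends of 0 Hox genes in arid4b-delta mesoderm (0%, interval 0% to 9.25%) and of 3 in WT mesoderm (7.89%, interval 1.66% to 21.4%), namely Hoxb2, Hoxa4 and Hoxb8, and of 0 in endoderm of both genotypes. Of all genes, 31.5% had H3K27ac in arid4b-delta mesoderm, 29.6% in WT mesoderm, 26.4% in arid4b-delta endoderm and 26.6% in WT endoderm. The Hox share was thus below that of all genes in every list. Over all genes 3.71% had it in WT mesoderm only and 5.61% in arid4b-delta mesoderm only, so the count of 3 stands on few genes. In endoderm, where no Hox gene had it, 4.49% of all genes had H3K27ac in the arid4b-delta list alone and 4.7% in the WT list alone. Between lineages, 7.43% of all genes had it in mesoderm only and 2.36% in endoderm only in arid4b-delta, and 6.36% and 3.4% in WT, where the same 3 Hox genes were marked in mesoderm only. Hoxb2 had 492 bp, Hoxa4 317 bp and Hoxb8 103 bp in WT mesoderm. Within 1 kb of its annotated start Hoxb8 had 0 bp, and Hoxb2 and Hoxa4 have no annotated start here. None of the 22 promoters with a sequence held H3K27ac in any list. By covered length, 0 Hox genes had more in arid4b-delta mesoderm and 3 more in WT mesoderm, against 18.6% and 16.5% of all genes, and in endoderm 13.8% of all genes had more in arid4b-delta and 17.3% more in WT, with no Hox gene among them. The count depends on the window, with 1 gene (Hoxa4) at 500 bp and 7 at 2500 bp, and with 0 where 500 bp of the window had to be covered.

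Counted as peaks, H3K27ac had 0 peaks in the clusters in arid4b-delta mesoderm and 11 in WT mesoderm, 6 in HoxA and 5 in HoxB, and 0 in endoderm of both genotypes. The whole lists held 22747 peaks in arid4b-delta mesoderm and 12496 in WT mesoderm, so the list without a Hox peak was the longer one. The longest were 695 bp at chr11:96352455-96353149, within the Hoxb2 gene model (authors' fold enrichment 8.7), and 597 bp at chr6:52177294-52177890, within the Hoxa3 gene model (authors' fold enrichment 10.8). In HoxA, 4 of the 6 lay within the Hoxa3 model or before it and 2 within the shared stretch of the Hoxa3 and Hoxa4 models. In HoxB, 4 lay between Hoxb2 and Hoxb3 or within those genes, and 1, of 168 bp, lay within Hoxb8. By position 3.24 kb lay in the anterior parts and 0.168 kb in the posterior parts. Of the acetylated bases 94.3% lay under H3K4me3. Under H3K27me3 lay 0% of those in HoxA and 79.2% of those in HoxB, so the clusters differed in that respect. With the upper 50% of each list the 3407 bp of H3K27ac in WT mesoderm fell to 1470 bp, and those of arid4b-delta stayed at 0 bp.

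Genes that work with the Hox proteins or act before them were counted as lists. Over all genes H3K27ac lay at 31.5% in arid4b-delta mesoderm, 29.6% in WT mesoderm, 26.4% in arid4b-delta endoderm and 26.6% in WT endoderm, and H3K27me3 at 16.3%, 9.34%, 17.2% and 14.4% in the same order of lists. The TALE homeodomain proteins (Pbx, Meis and Pknox) bind DNA together with Hox proteins. H3K27ac lay at 5 of these 9 genes in arid4b-delta mesoderm and at 8 in WT mesoderm, and at 3 in endoderm of both genotypes. H3K27me3 lay at 3 in arid4b-delta mesoderm (Meis1, Meis2, Pknox2) and at 0 in WT mesoderm, and at the same 3 in endoderm of both genotypes. Meis2 had 2581 bp of H3K27me3 in arid4b-delta mesoderm, 0 bp in WT mesoderm, 4002 bp in arid4b-delta endoderm and 2315 bp in WT endoderm. H3K27ac of Meis2 was 0 bp in arid4b-delta mesoderm, 779 bp in WT mesoderm and 0 bp in endoderm of both genotypes. Meis1 had 1628 bp of H3K27me3 in arid4b-delta mesoderm and 0 bp in WT mesoderm, with 146 bp and 531 bp of H3K27ac. Meis1 and Meis2 thus had, in WT mesoderm, less H3K27me3 and more H3K27ac than in the other lists.

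Of 6 caudal and ParaHox genes, which include the Cdx factors that act upstream of central Hox genes, H3K27ac lay at 0 in arid4b-delta mesoderm and at 1 in WT mesoderm (Cdx2, 260 bp), and at 0 in endoderm. H3K27me3 lay at 6 in arid4b-delta mesoderm, 5 in WT mesoderm, 6 in arid4b-delta endoderm and 5 in WT endoderm. Cdx2 had 4002 bp of it in arid4b-delta mesoderm, 1634 bp in WT mesoderm and 4002 bp in endoderm of both genotypes. Evx1 and Evx2, even-skipped homologues that flank the posterior ends of HoxA and HoxD, also differed in mesoderm. Evx1 had 4002 bp of H3K27me3 in arid4b-delta mesoderm, 0 bp in WT mesoderm and 4002 bp in endoderm of both genotypes. Evx2 had 2771 bp in arid4b-delta mesoderm, 957 bp in WT mesoderm, 3030 bp in arid4b-delta endoderm and 2094 bp in WT endoderm. Evx1 thus had no H3K27me3 at its ends in WT mesoderm, although it stands next to the posterior HoxA genes, which were 76.1% to 100% covered there.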

How the data were processed

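ChIP-seq of H3K27me3, H3K4me3 and H3K27ac in 12 libraries, 1 per mark, lineage and genotype, was used through the peak lists the authors deposited. Of 16 samples, 4 input samples have no list used here. Bowtie2, Picard and MACS2 and the build mm10 are named in the submitters' processing notes, with versions and thresholds not given in the sources used here. Each deposited list has no header and the layout of a MACS2 peak file: a peak's position, a score, a fold enrichment (a ratio), a −log10 p-value, a −log10 q-value and a summit position, all computed by the authors' peak caller on single libraries. The lists hold no read counts, so depth is unknown, and no batch is named in the labels.

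A gene was marked when a peak overlapped by at least 1 bp the 1000 bp on either side of either gene end. Covered bases were counted over gene ends, gene models with 1000 bp on either side, whole clusters and 10 kb bins. Genes come from a mouse RefSeq gene table, which gave no exons or strand here, so peaks were not placed in exons or introns. Promoter and microRNA sequences come from RefSeq (GRCm38.p6), with a promoter for 22 of the 38 genes. Gene models of neighbouring Hox genes overlap, and members share peaks. Exact Clopper-Pearson 95% intervals are given on shares of genes. The counting of covered bases was checked against direct counts on simulated peaks.

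With 1 library per group no test was run, and whether libraries share a culture is not stated. Named genes are those with H3K27ac, those whose H3K4me3 or H3K27me3 state differed between genotypes or lineages, and those under the longest peaks. Values of other members illustrate positions. The members and lists were chosen with earlier results of these data known. The split of clusters at their midpoints, the limit of 50% on H3K27me3 cover with its alternatives, the Hoxb1 promoter and 3 alternatives (matching by −log10 q in length or in covered bases, and HoxB with Hoxb13 when split) were chosen after seeing the data. One further Hox gene is not reported here. Tools were Python 3.11.15, numpy 2.4.6, pandas 2.3.3 and scipy 1.17.1.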

Additional observations from a re-analysis of the deposited data

Results flagged for a closer look

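In HoxA and HoxB the genotypes differed in opposite directions in the lineages, and that difference was not tested, since each group has 1 library. For HoxA, H3K4me3 covered 4025 bp more in arid4b-delta than in WT in endoderm, and the difference, arid4b-delta minus WT, was −2554 bp in mesoderm. For HoxB, the difference was 6815 bp in endoderm and −1225 bp in mesoderm. The mesoderm direction of HoxA turned with the upper 50% of each list, where the ratio of arid4b-delta to WT was 1.45.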

How the results depend on the processing

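No paired analysis was possible because each group has 1 library and no result comes from a test. Over 56 results, 501 alternatives were computed. Of these, 415 left the value within 1.5 times without a called turn, 72 moved it further and 14 turned its direction. A turn was called only for reported ratios at least 1.1-fold from 1, and counts of genes have no direction. The alternatives were computed for the Hox genes and clusters only, so the counts of Hox genes below have no share of all genes beside them. The cause was not tested beyond what each setting removes.

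With each list reduced to its upper 50% by fold enrichment, H3K4me3 was in arid4b-delta only at 6 Hox genes in endoderm. Within arid4b-delta 3 genes had it in endoderm and not in mesoderm, and within WT 8 had it in mesoderm and not in endoderm. H3K27me3 was then in arid4b-delta only at 9 genes in mesoderm and, within WT, in endoderm and not in mesoderm at 9, and 1 gene was under 50% covered by it in arid4b-delta mesoderm and 23 in WT mesoderm. H3K27ac was at 1 Hox gene in WT mesoderm against either comparison, over 1470 bp of cluster. The mesoderm over endoderm ratio of H3K4me3 in arid4b-delta was 3.21, and the arid4b-delta over WT ratio of HoxA in mesoderm turned to 1.45.

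With lists matched in length by fold enrichment, H3K4me3 of mesoderm was in arid4b-delta only at 4 genes and in WT only at 5, the ratio over the clusters turned to 0.974, and 1 gene was in endoderm only in arid4b-delta. With lists matched in length by −log10 q these values were 3, 5, 0.963 and 1.

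With lists matched in covered bases by −log10 q, H3K4me3 in arid4b-delta only fell to 0 genes in both lineages, and WT only came to 23 in mesoderm and 8 in endoderm. The mesoderm ratio turned to 0.0379. Between lineages, mesoderm only came to 1 gene and endoderm only to 7 in arid4b-delta (ratio 0.82), and to 3 and 2 in WT (ratio 2.16). H3K27me3 was in WT only at 10 genes in mesoderm, within WT in mesoderm and not in endoderm at 1, under 50% at 10 genes in arid4b-delta mesoderm, and the ratio of HoxB in mesoderm turned to 0.263.

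As a share of each list, the arid4b-delta over WT ratio of H3K4me3 was 4.52 in endoderm and 0.798 in mesoderm. That of H3K27me3 was 0.673 in endoderm and 0.612 in mesoderm, with 0.623 in HoxA, 0.693 in HoxB, 0.508 in HoxC and 0.654 in HoxD, and mesoderm over endoderm was 1.37 in WT. The arid4b-delta over WT ratios of H3K27me3 were capped by the cluster length. With −log10 q of at least 2, H3K27me3 was in arid4b-delta only at 1 gene in endoderm and 22 in mesoderm, within WT in endoderm and not in mesoderm at 21, and under 50% at 29 genes in WT mesoderm, with ratios of 4.06 (arid4b-delta over WT, mesoderm) and 0.259 (mesoderm over endoderm, WT).

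With windows of 500 bp or 2500 bp, H3K4me3 was in WT mesoderm only at 1 gene each, and H3K27ac was at 1 and 7. Where at least 500 bp had to be covered, H3K27ac was at 0 genes, and with peaks of at least 500 bp at 1. Under both settings H3K27me3 was in arid4b-delta only at 1 gene in mesoderm and, within WT, in endoderm and not in mesoderm at 1. At gene starts alone these counts were again 1 and 1, and within arid4b-delta 1 gene (Hoxd10) had H3K4me3 in endoderm and not in mesoderm. For 16 of the 38 genes the start was taken as the gene end with more H3K4me3 in these lists, so H3K4me3 values at starts use a choice made from the same values. The HoxB genes with an annotated start are on the plus strand, but the high-coordinate end was taken for Hoxb2, Hoxb3 and Hoxb6. The ends used for these genes may thus not be their starts. With Hoxb13 in the split of HoxB, the posterior over anterior ratio of H3K4me3 in mesoderm was 0.744 in arid4b-delta and 0.296 in WT. No value could be given for the ratio of H3K4me3 in endoderm where WT kept no Hox peak. Unknown depth, 1 library per group and lists of unequal length limit each comparison.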
